A study of Mus musculus with 4 samples.

Results

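The genes described here are 9 members of the interferon receptor, STAT and IRF axis: the interferon gene Ifnb1, the receptor genes Ifnar1 and Ifnar2, the signal transducer gene Stat2, and the interferon regulatory factor genes Irf1, Irf2, Irf3, Irf7 and Irf9. They were taken by symbol from a table of 54842 genes, in which each had 1 row. Total RNA was depleted of ribosomal RNA and sequenced from mouse embryonic fibroblasts (MEF cells) that were wild-type (wt) or null for Top2β, the DNA topoisomerase that relaxes and untangles DNA in dividing and resting cells, with 2 libraries per genotype. All cells were untreated. The paper gives DMEM medium with serum for MEF cells and names no separate medium for the Top2β-null MEF cells. The Top2β-null MEF cells came from Top2β-null mice and were a gift from other laboratories, listed apart from the wt MEF cells, so that genotype and origin of the cells cannot be told apart. The labels do not say whether the replicates were separate cultures, and the p-values measure only the spread between these libraries.

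Type I interferons, such as interferon β (the product of Ifnb1), are secreted when a cell senses foreign or misplaced nucleic acids. They bind a receptor made of the Ifnar1 and Ifnar2 chains, whose associated kinases Jak1 and Tyk2 activate STAT proteins. Stat2 joins Irf9 and a STAT partner in a complex called ISGF3, which binds a DNA element (ISRE) in the promoters of interferon-stimulated genes. Irf3 and Irf7 switch on the interferon genes themselves, Irf1 is an activator and Irf2 mostly its antagonist on shared DNA elements. Fibroblasts carry this axis at rest, and many of its components are themselves interferon-stimulated genes.

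The libraries held between 133116830 and 149647278 counts. Top2b had 18259 and 18465 normalized counts in wt, against 3879 and 3789 in Top2β-null MEF cells (a normalized count is a count scaled by edgeR's TMM factors to a common library size). Of 10 fibroblast markers, the collagen genes Col1a1 and Col1a2 and the filament gene Vim were abundant in every library, whereas Lum had at most 4 counts. The markers of this list moved in opposite directions, with 4 called higher (Dcn, Thy1, Pdgfrb and Pdgfra, with log2 fold changes of 4.99, 2.07, 1.88 and 1.16) and 2 lower (Col1a1 and Col3a1, -1.38 and -1.01, the latter not called with TMM factors from genes only, total counts or Hprt, at -0.99, -0.94 and -0.64). Their sum, carried by Vim and the collagens, was 883736 and 898985 normalized counts in wt, against 555222 and 560373 in Top2β-null MEF cells. The 8 epithelial and endothelial markers summed to between 232 and 277, with Kdr called higher (1.54) and Krt8, Tek and Cdh1 lower by the adjusted p alone (-3.13, -2.54 and -1.38). The 16 leukocyte markers summed to 2577 and 2614 normalized counts in wt and to 1436 and 1458 in Top2β-null MEF cells, most of it from Cd68 and Csf1r. Cd68 was lower (mean 1665 to 296), whereas Csf1r (753 to 970) and Fcer1g (32.0 to 53.7) were higher by the adjusted p. Itgam (0.988 to 28.3) passed the filter on low counts only through the Top2β-null libraries. Ptprc, which marks all leukocytes, had 2 to 7 counts per library, and Tyrobp, Adgre1 and Siglech, the last a marker of plasmacytoid dendritic cells, had 0 counts in every library. The part of other cell types in the results that follow was not tested.

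Of the 9 genes, 8 were higher in both Top2β-null libraries than in both wt libraries, and none was lower. Irf9 rose most, followed by Irf7, Irf1 and Stat2, and these 4 passed the cut-offs of the study (a mean over 100 normalized counts, a log2 fold change beyond 1 in either direction and an adjusted p under 0.05). Among all 26566 genes and repeat families tested, 5.27% were called higher by this rule, 4.97% lower and 10.2% in either direction. Only the 17952 with a mean over 100 could be called, and 1399 of them were higher and 1320 lower. All 8 tested genes of the axis had such a mean. Irf2, Ifnar2, Ifnar1 and Irf3 rose by less than this fold cut-off, with an adjusted p below 0.05 in edgeR's quasi-likelihood test. By the adjusted p alone, 8 genes of this axis were higher, where 32.5% of all features were higher, 32.5% lower and 65% either. Of the 17952 features with a mean over 100, 6588 were higher and 6881 lower in this way. Groups that do not overlap were common in these libraries (80.5% of all features tested), so that the size of a change says more than the separation. The median log2 fold change of the 8 tested genes was 0.90, against 0.0027 over all features. In bulk RNA, a change in the number of cells that express a gene and a change in RNA per cell cannot be told apart.

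**Figure D1:**
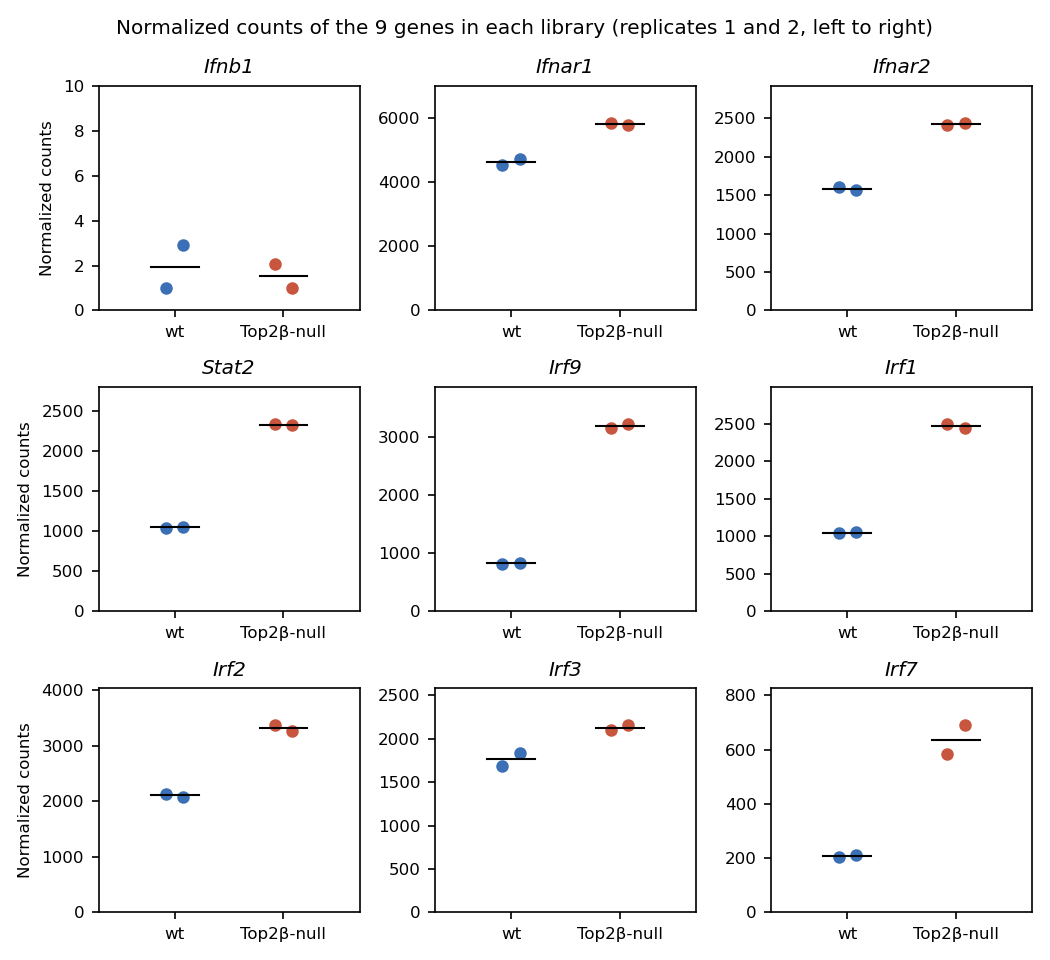
Normalized counts (vertical axes, from 0) of the 9 genes in the wt and Top2β-null libraries; each point is 1 library and each bar a group mean, n = 2 per group. In 8 panels both Top2β-null points lie above both wt points, while Ifnb1 stays below 3 normalized counts in every library.

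Ifnb1, on chromosome 4 of GRCm38 (mm10) from 88522025 to 88522774 on the reverse strand, had 1 and 3 counts in wt, against 2 and 1 in Top2β-null MEF cells. All 4 values are at or under the limit of 3 counts that a count of 0 allows, and no fold change was computed. A difference in Ifnb1 RNA between the genotypes was therefore not detectable at this depth. The other interferon genes also had few counts. Of the 20 listed (interferon α, γ, λ, ε, κ and ζ genes), 12 had 0 counts in every library and 18 had at most 10 in each. The 20 genes together had 24 and 34 counts in wt, against 41 and 51 in Top2β-null MEF cells. The highest value was 23 counts, reached by Ifna13 in Top2β-null replicate 2 (7 counts in replicate 1, and 8 and 7 in wt) and by Ifnk in wt replicate 2 (10 counts in replicate 1, and 18 and 15 in Top2β-null). The interferon α genes are close copies of each other, and reads shared between them may have been counted for any of them. Ifnk had an adjusted p of 0.944 (edgeR). Ifne, with 5 and 4 counts in wt against 10 and 10 in Top2β-null MEF cells, passed the filter on low counts only through the latter, and its test is not used.

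The receptor genes lie close together on chromosome 16, in a cluster that also holds Il10rb and Ifngr2 and spans 192.8 kb, all on the forward strand. Ifnar1 (from 91485238 to 91507441) encodes the signalling chain that carries Tyk2. Its normalized counts were 4541 and 4702 in wt, against 5825 and 5787 in Top2β-null MEF cells. The Ifnar1 groups were well apart, and the log2 fold change was 0.33 (SE, the standard error, 0.0303, adjusted p = 7.9e-08, edgeR). Ifnar2 (from 91372783 to 91405589) encodes the chain that binds interferon most tightly and carries Jak1. Normalized counts of the gene were 1606 and 1563 in wt, against 2408 and 2431 in Top2β-null MEF cells. Ifnar2 thus rose 1.53-fold (log2 fold change 0.61, standard error 0.0449, adjusted p = 4.8e-09, edgeR). The gene model Gm21970 shares 315 exon bases with Ifnar2 on the same strand, 9.46% of the exon length of Ifnar2, and rose with it from 578 and 612 to 860 and 888 counts. How reads in the shared bases were divided was not tested.

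The neighbours in this cluster were also higher, with none called. Ifngr2, a chain of the interferon γ receptor, had a log2 fold change of 0.12 with a standard error of 0.0377, and Il10rb, a chain shared by the receptors of interferon λ and interleukin 10, one of 0.29 (standard error 0.0586), with adjusted p = 0.00983 and adjusted p = 4.1e-04 (edgeR). Ifngr1, which encodes the ligand-binding chain of the interferon γ receptor and lies outside the cluster, fell from 4684 and 4477 to 2433 and 2538 normalized counts. This was a log2 difference of -0.88 (standard error 0.0392, adjusted p = 7.7e-12, edgeR), short of the fold cut-off. Ifnlr1, the other chain of the interferon λ receptor, had 4 to 13 counts per library in overlapping groups. Of these 4 other receptor genes, none was called.

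Stat2 lies on chromosome 10 from 128270559 to 128292849 on the forward strand. Its normalized counts were 1045 and 1057 in wt, against 2334 and 2325 in Top2β-null MEF cells. The Stat2 replicates lay close together, and the genotypes 2.22-fold apart. The log2 fold change of Stat2 was 1.15 (SE 0.0476, adjusted p = 3.0e-12, edgeR).

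Irf9, which brings DNA binding to the ISGF3 complex, lies on chromosome 14 from 55603571 to 55610030 on the forward strand. Normalized counts of the gene were 824 and 838 in wt, against 3171 and 3225 in Top2β-null MEF cells. This 3.85-fold rise was the largest of the 8 genes tested (log2 fold change 1.94, standard error 0.0474, adjusted p = 3.6e-15, edgeR). Chromosome 14 also carries Top2b, 39.2 Mb from Irf9. Of 566 genes on it with a mean over 100 normalized counts, 27.6% were called in either direction, against 15.8% of the genes on other chromosomes, and the part of linked DNA in the rise of Irf9 was not tested. Rnf31, a neighbour that encodes a ubiquitin ligase subunit, shares 123 exon bases with Irf9 on the same strand (2.28% of the exon length of Irf9). Its counts went from 1986 and 2128 to 3066 and 3308.

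Stat2 and Irf9 did not rise in step. The log2 ratio of Irf9 to Stat2 counts within a library, which needs no scaling between libraries, was -0.34 and -0.33 in wt, against 0.44 and 0.47 in Top2β-null MEF cells. The genotypes differed by 0.80, against a pooled replicate SD of 0.0158. Per base of exon, Stat2 was the more abundant of the pair in wt MEF cells (177 ± 1.44 against 154 ± 1.94 normalized counts per kb, SD, n = 2) and Irf9 in Top2β-null MEF cells (594 ± 7.04 against 393 ± 1.18, SD, n = 2).

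Irf3 is the constitutive factor that is activated by phosphorylation when nucleic acids are sensed. It lies on chromosome 7 from 44997648 to 45002848 on the forward strand, and its normalized counts were 1686 and 1837 in wt, against 2094 and 2152 in Top2β-null MEF cells. Irf3 changed least of the 8 genes, and its wt replicates were the farthest apart in relation to the change. The log2 fold change was 0.27 (SE 0.0503, adjusted p = 2.0e-04, edgeR), with 0.21 to 0.33 when each library was left out in turn. Bcl2l12, on the opposite strand, shares 88 exon bases with Irf3, and had 780 and 790 counts in wt and 765 and 812 in Top2β-null MEF cells.

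Irf7, the factor that is itself interferon-stimulated and drives the later wave of interferon genes, lies on the same chromosome from 141262706 to 141266481 on the reverse strand. Its normalized counts were 203 and 211 in wt, against 585 and 689 in Top2β-null MEF cells. Irf7 was the scarcest of the 8 genes per exon length in either genotype. It rose 3.08-fold (log2 fold change 1.62, standard error 0.0979, adjusted p = 3.8e-10, edgeR). In relation to their mean, the Top2β-null libraries differed more for this gene than for any other of the 8, and the log2 fold change was 1.5 without replicate 2 and 1.76 without replicate 1 of Top2β-null MEF cells. Phrf1, on the opposite strand, shares 45 exon bases with Irf7 and had 11939 and 12956 counts in wt and 13301 and 13547 in Top2β-null MEF cells. The log2 ratio of Irf7 to Irf3 counts went from -3.05 and -3.13 in the wt libraries to -1.84 and -1.64 in the Top2β-null libraries, a difference of 1.35 (pooled replicate SD 0.105).

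Irf1, an activator that responds to interferon γ and to other stimuli, lies on chromosome 11 from 53770014 to 53778374 on the forward strand. Normalized counts of the gene were 1041 and 1056 in wt, against 2489 and 2446 in Top2β-null MEF cells. The replicates of Irf1 were close, and the log2 fold change was 1.23 (SE 0.0475, adjusted p = 1.2e-12, edgeR). Gm17334, on the opposite strand, shares 135 exon bases with Irf1 and went from 100 and 95 to 221 and 197 counts. The table does not state whether counting used the strand of the reads, and without it reads from the shared bases cannot be told apart.

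Irf2, the antagonist of Irf1 on shared elements, lies on chromosome 8 from 46739732 to 46847458 on the forward strand. Its normalized counts were 2134 and 2071 in wt, against 3362 and 3260 in Top2β-null MEF cells. Irf2 rose 1.58-fold (log2 fold change 0.66, standard error 0.0411, adjusted p = 6.3e-10, edgeR). Irf2 counts exceeded those of Irf1 in every library, but less so in Top2β-null MEF cells. The log2 ratio of Irf1 to Irf2 was -1.04 and -0.97 in wt, against -0.43 and -0.41 in Top2β-null MEF cells, and the means lay 0.58 apart (pooled replicate SD 0.0334). For the receptor chains, the log2 ratio of Ifnar1 to Ifnar2 was 1.5 and 1.59 in wt, against 1.27 and 1.25 in Top2β-null MEF cells, with a shift of the mean by -0.28 (pooled replicate SD 0.0462). For all 4 ratios the genotypes did not overlap, and the two-sided exact permutation test gave p = 0.33, the smallest that 2 libraries against 2 allow (0.33 after Benjamini-Hochberg adjustment over the 4 ratios).

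**Figure D2:**
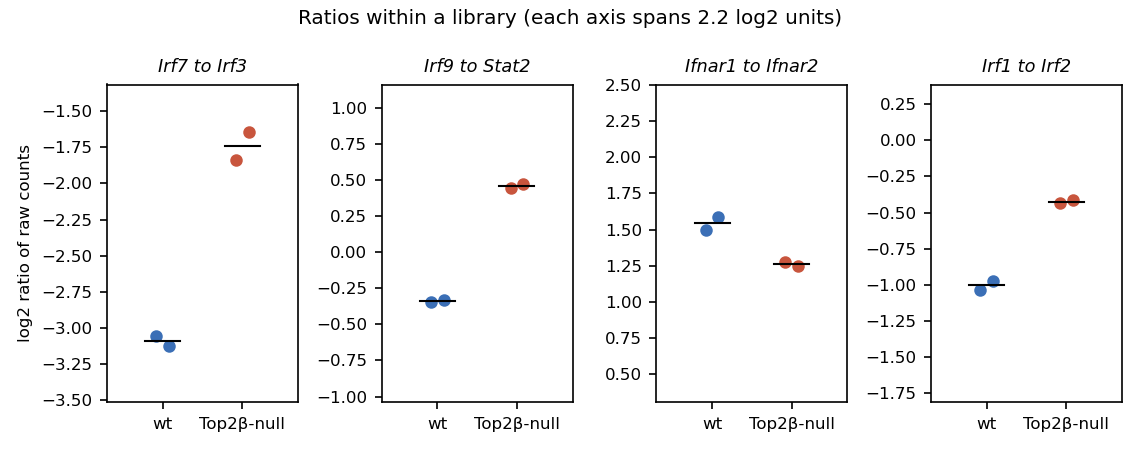
Log2 ratio of raw counts (vertical axes, each spanning 2.2 log2 units) for 4 pairs of genes; points are libraries, bars group means, n = 2 per group. Irf7 to Irf3, Irf9 to Stat2 and Irf1 to Irf2 lie higher in Top2β-null MEF cells, and Ifnar1 to Ifnar2 lies 0.28 lower.

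Levels of different genes were compared per kb of exon, with the exon length of each gene taken as the union of its GENCODE exons. In wt MEF cells the order was Ifnar1 (778 ± 19.2 normalized counts per kb, SD, n = 2), Irf3 (512 ± 31.1), Ifnar2 (476 ± 9.13), Irf2 (284 ± 6.0), Irf1 (264 ± 2.69), Stat2 (177 ± 1.44), Irf9 (154 ± 1.94), Irf7 (54.7 ± 1.44) and Ifnb1 (2.60 ± 1.78). No neighbours in this order overlapped, but the gap between Irf3 and Ifnar2 (means 512 and 476) was little more than the SD of Irf3. In Top2β-null MEF cells the order was Ifnar1 (977 ± 4.47), Ifnar2 (727 ± 5.00), Irf1 (621 ± 7.54), Irf3 (617 ± 11.9), Irf9 (594 ± 7.04), Irf2 (448 ± 9.69), Stat2 (393 ± 1.18), Irf7 (169 ± 19.5) and Ifnb1 (2.04 ± 1.02). There Irf1 and Irf3 overlapped and were not distinguishable. Irf9 moved from rank 7 to rank 5 and Irf1 from rank 5 to rank 3, while Ifnar1 stayed first and Irf7 and Ifnb1 last. The order depends on annotated exon lengths, which count exons that MEF cells may not use.

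**Figure D3:**
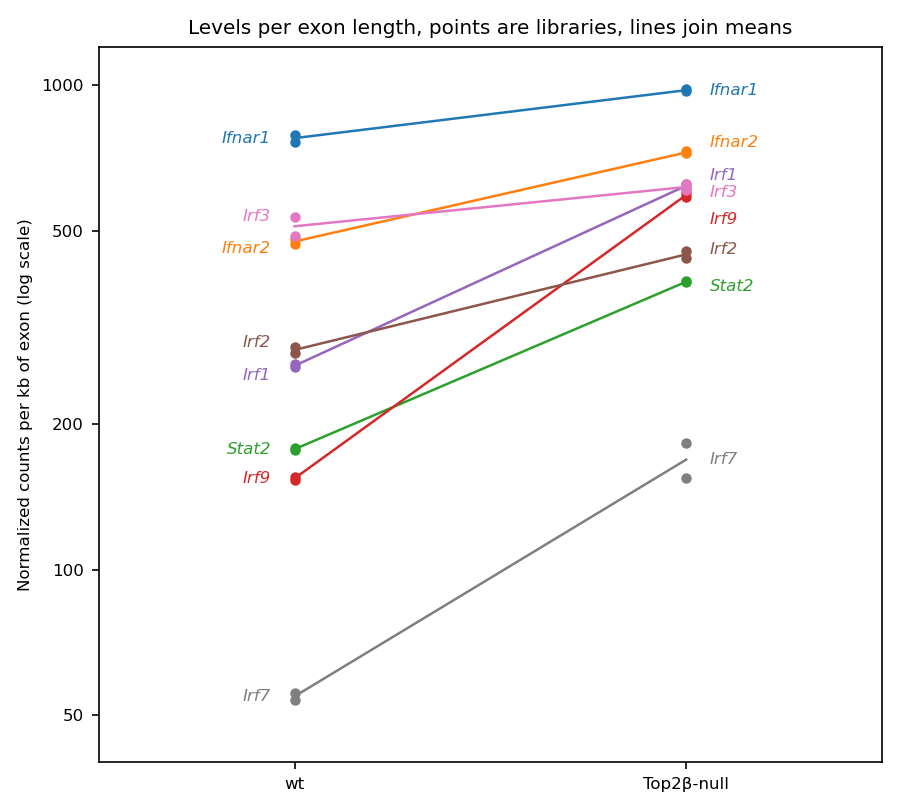
Normalized counts per kb of exon (log scale) for the 8 genes with measurable RNA in wt and Top2β-null MEF cells; points are libraries and lines join the means of 2 libraries. The line of Irf9 crosses those of Stat2 and Irf2, that of Irf1 crosses Irf2 and meets Irf3, and that of Ifnar2 crosses Irf3, while the range from Irf7 to Ifnar1 narrows from 54.7 and 778 to 169 and 977.

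Promoter sequences were read from RefSeq (GRCm38.p6) as windows from 250 bases before to 50 bases after each annotated start, and all 9 genes matched, with 11 windows. The ISRE core was searched on both strands as GAAA followed, after a gap of 2 bases, by a second GAAA. The core of the element bound by STAT dimers (GAS) was searched on both strands as TTCNNNGAA, a pattern that reads the same on either strand. The patterns could share bases, but no matches in these genes did. The ISRE core was in the windows of 2 of the 9 genes, Stat2 and Irf2, and in 3.44% of the 32851 windows of all genes. The GAS core was in the windows of 4 of the 9, Ifnar1, Ifnar2, Irf1 and Irf2, and in 8.30% of all windows. Ifnb1, Irf3, Irf7 and Irf9 held neither in these windows, which says only that these letters are not there. For Irf9 both RefSeq windows lie inside the gene as GENCODE annotates it.

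The stretches around the matches are printed because they show where the searched letters lie in a called gene with each element (Stat2 and Irf1), in the antagonist with both (Irf2) and in a receptor chain (Ifnar2). They are given 5′ to 3′ on the strand of the gene, with the matched letters in capitals. The Stat2 stretch is chr10:128270248-128270315, the Irf1 stretch chr11:53769894-53769962, the Irf2 stretch chr8:46739495-46739559 and the Ifnar2 stretch chr16:91372539-91372607, all on the forward strand of GRCm38.p6.
Stat2: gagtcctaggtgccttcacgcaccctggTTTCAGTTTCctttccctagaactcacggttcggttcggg
Irf1: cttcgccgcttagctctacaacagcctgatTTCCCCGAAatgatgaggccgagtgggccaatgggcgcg
Irf2: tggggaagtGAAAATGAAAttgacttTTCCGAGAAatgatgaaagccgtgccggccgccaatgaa
Ifnar2: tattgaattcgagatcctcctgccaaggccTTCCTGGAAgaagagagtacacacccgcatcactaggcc

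The Stat2 match lies on the strand opposite to the gene, at positions -222 to -213 from the start. In Irf1 the GAS core lies at positions -90 to -82. In Irf2 the ISRE core lies at -241 to -232 and the GAS core at -224 to -216, and in Ifnar2 the GAS core lies at -214 to -206. Log2 fold changes were 1.15, 1.23, 0.61 and 0.33 for Stat2, Irf1, Ifnar2 and Ifnar1, with 1 element each, and 0.66 for Irf2, with both. They were 1.94, 1.62 and 0.27 for Irf9, Irf7 and Irf3, with neither. Of the 24 interferon-stimulated genes of the list below that had a window, 13 held the ISRE core.

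The kinases that sit on the receptor changed little. Jak1 had 17702 and 17408 normalized counts in wt, against 18922 and 18943 in Top2β-null MEF cells (log2 fold change 0.11, standard error 0.0242, adjusted p = 9.2e-04, edgeR). Tyk2 had a log2 fold change of 0.083 (95% interval -0.0085 to 0.17), with adjusted p = 0.133 (edgeR). Of the 9 kinase and STAT genes listed, 8 were tested and 2 were called, both higher, with a median log2 fold change of 0.17. By the same rule, 5.27% of all features were called higher and 4.97% lower. Jak3, a kinase best known from lymphocytes, rose from 134 and 137 to 1720 and 1605 normalized counts (log2 fold change 3.61, standard error 0.0769). Stat3, which acts downstream of interleukin 6 type cytokines, rose from 4775 and 4850 to 14666 and 14894 (1.62, standard error 0.0263). Stat6 and Stat5b fell by 0.60 and 0.38 on the log2 scale, short of the fold cut-off. Stat4 had at most 2 counts per library.

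Among the 3 other IRF genes listed, Irf5, a factor of inflammatory gene induction, was called. It rose from 1935 and 1967 to 5065 and 5358 normalized counts (log2 fold change 1.42, standard error 0.0397, adjusted p = 2.0e-14, edgeR). Irf8, a factor of myeloid cells, had 0 counts in either library of wt, against 16 and 12 in Top2β-null MEF cells. Against a floor of 3 counts per library this is at least 4.80-fold higher. The gene passed the filter on low counts only through the Top2β-null libraries, and its test is not used. It moved in the same direction as the myeloid marker Itgam, with 1 count in each wt library and 27 and 29 in the Top2β-null libraries, and in the opposite direction to Cd68, which fell from 1626 and 1748 to 292 and 292 counts. The part of other cell types in Irf8 was not tested. Irf4 had at most 6 counts per library. The partners of Irf2 moved apart. Irf2bp2 and Irf2bp1, corepressors named for binding Irf2, had log2 fold changes of 0.51 and 0.18, and Irf2bpl one of -0.45, all with an adjusted p below 0.05 and none called.

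Among the 13 negative regulators, 2 were called higher and 2 lower, against 5.27% and 4.97% of all features. The median log2 fold change was -0.054, which became 0.016 when scaled by total counts and 0.31 by Hprt. Usp18, an interferon-stimulated protease that binds Ifnar2 and damps its signal, had 4.04 and 5.80 normalized counts in wt, against 651 and 655 in Top2β-null MEF cells. It passed the filter on low counts only through the Top2β-null libraries, and 1 regulator was called higher where each library had to hold 100 counts. Cish, a feedback inhibitor induced by Stat5, rose from 155 and 158 to 458 and 510 normalized counts (log2 fold change 1.62, standard error 0.102). Socs2 fell from 1343 and 1277 to 471 and 493 normalized counts, and Ptpn6, a phosphatase also known as SHP-1, fell from 338 and 326 to 157 and 161 (-1.06, standard error 0.109). The call on Ptpn6 was lost with either scaling (-0.99 and -0.69). Socs1, the suppressor most closely tied to interferon signalling, with a sign that flips under these scalings, had 977 and 1043 normalized counts in wt, against 953 and 993 in Top2β-null MEF cells. The Socs1 groups overlapped, and the interval of its log2 fold change was -0.17 to 0.061 (adjusted p = 0.441, edgeR).

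Along the route that activates Irf3, the called genes were sensors and an adaptor. Of 12 genes, 4 were called higher and none lower, against 5.27% and 4.97% of all features. By the adjusted p alone, 5 were higher and 5 lower, where 32.5% of all features were higher and 32.5% lower. The median log2 fold change of the 12 genes was -0.012, or 0.057 and 0.36 with these scalings. The 4 called genes were the RNA sensors Ifih1 and Ddx58, the DNA sensor Cgas and its adaptor Tmem173, also known as STING. Ifih1 had 7 and 17 counts in wt, against 426 and 506 in Top2β-null MEF cells, and thus passed the filter through the latter. Log2 fold changes were 3.26 for Ddx58 (standard error 0.0464), 1.03 for Cgas (standard error 0.0389) and 2.17 for Tmem173 (standard error 0.0654). Ddx58 went from 553 and 566 to 5437 and 5263 normalized counts. The adaptor Ticam1 fell from 2215 and 2360 to 1312 and 1369 normalized counts and Traf3 from 9635 and 9518 to 6049 and 6085, each short of the fold cut-off. Tbk1, the kinase that phosphorylates Irf3, had 7373 and 7344 normalized counts in wt, against 6115 and 5915 in Top2β-null MEF cells, a log2 fold change of -0.29 with a standard error of 0.0279, which became 0.078 with scaling to Hprt.

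Most listed targets of the axis were higher in Top2β-null MEF cells. Of 31 interferon-stimulated genes that are not members of the axis, 29 were tested, 15 were called higher and none lower, and 28 were higher by the adjusted p alone. Over all features, 5.27% were called higher, 4.97% were called lower and 32.5% were higher by the adjusted p alone. The median log2 fold change of the 29 genes was 5.92, or 4.97 when lower bounds stood in for the 11 genes that wt MEF cells had at or under 3 counts. Of the 29 genes, 15 passed the filter on low counts only through the Top2β-null libraries, a selection that favours a rise, and 5 of them were among the called. With at least 100 counts asked of all 4 libraries, 4 genes were called higher and the median was 0.91. The antiviral gene Oasl2 had 0 and 1 counts in wt, against 437 and 433 in Top2β-null MEF cells. Ifi44 had 1 and 0 counts in wt, against 419 and 431 in Top2β-null MEF cells. At the other end, Ifi35 had a log2 fold change of 0.32 and Ifit2 one of -0.71, from 7479 and 7659 to 4681 and 4590 normalized counts. The list was written with earlier results of these libraries known, and its direction is not independent evidence.

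**Figure D4:**
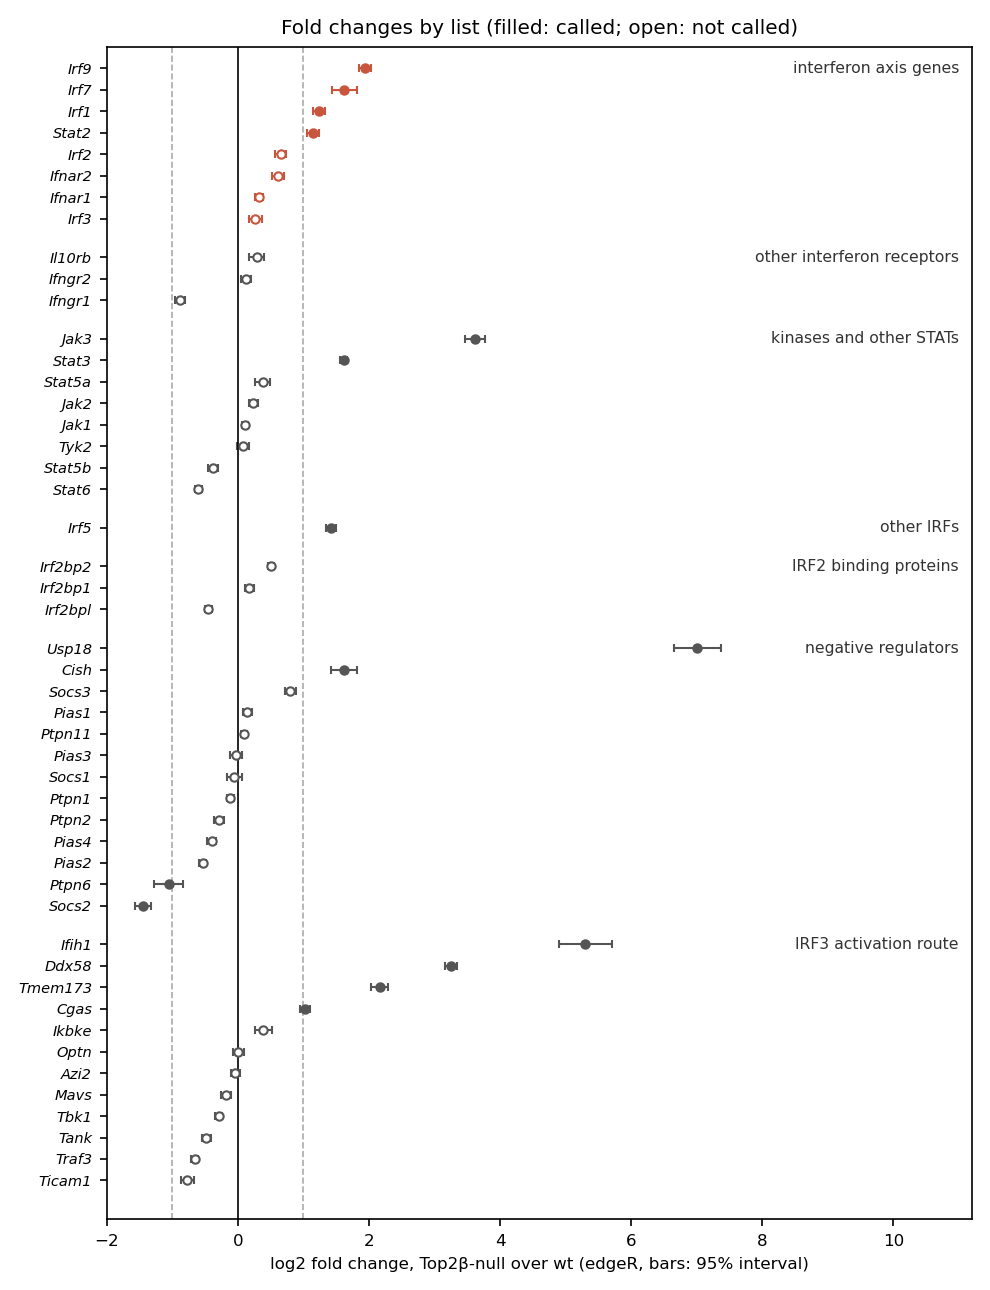
Log2 fold change of Top2β-null over wt MEF cells (horizontal axis) for genes with a mean over 100 normalized counts, by list. The other interferon genes, the interferon-stimulated genes and the cell type markers are not shown. Bars are 95% intervals from edgeR, filled points were called and open points were not. The 8 genes of the axis (red) all lie to the right of 0, with Irf9 at 1.94 and Irf3 at 0.27. The other lists shown have members on either side, except the other IRFs with Irf5 alone.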

How the data were processed

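Per the paper's methods, the authors used Trim Galore! (0.4.0) for trimming, STAR (2.5.2) for alignment to mm10 and TEtranscripts (1.5.1) for counts over Gencode genes and repeat families. The deposited values are raw counts, 1 column per library. The mode of counting and its use of strand are not given in the sources used here. Library columns were assigned by the library names in the labels. Symbols, coordinates and exon lengths come from GENCODE M21 (GRCm38, which is mm10).

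Tests were run with edgeR 4.0.16 (R 4.3.3): the 26566 features that reached 10 counts in 2 or more libraries, TMM factors over genes and repeats, a quasi-likelihood fit with genotype as the only term and Benjamini-Hochberg adjustment over all features. Standard errors were taken as the size of the log2 fold change over root F, and 95% intervals from the normal quantile. The test was checked on simulated data. Over features with at least 10 counts in a group, the spread of replicates exceeded counting noise (reduced chi-square 3.65 for wt, 5.07 for Top2β-null), so none was merged. Alternatives were DESeq2 1.42.0, other scalings and filters, the replicate number as a block, the adjusted p alone and leaving out each library.

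The genes and lists were chosen with earlier results of these data known. Named genes are the 9 genes of the axis, Top2b, and from each list up to 2 with the highest and 2 with the lowest fitted log2 fold change over a mean of 100 normalized counts. Ifna13, Ifne, Ifnk, Ifnlr1, Irf4, Irf8, Stat4, Jak1, Tyk2, Socs1, Cgas, Tmem173, Tbk1, the markers and overlapping genes were named after their values were seen. Medians are given for lists with at least 5 tested genes. For genes with more than one window, any window counted. Some genes of these families are not reported here.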

Additional observations from a re-analysis of the deposited data

How the results depend on the processing

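All 56 alternative log2 fold changes of the 8 tested genes from fits with every library, and all 32 with a library left out, kept their direction and their side of an adjusted p of 0.05. With each library left out the values ran from 0.30 to 0.35 for Ifnar1, 0.59 to 0.64 for Ifnar2, 1.14 to 1.17 for Stat2, 1.22 to 1.25 for Irf1, 0.63 to 0.68 for Irf2, 0.21 to 0.33 for Irf3, 1.5 to 1.76 for Irf7 and 1.93 to 1.98 for Irf9. Scaling to Hprt, itself lower in Top2β-null MEF cells (log2 fold change -0.37), moved the median of all features to 0.37, and the genes of the axis rose with it by the same amount, so that 5 were called, Irf2 with 1.02 being added.

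The number of genes of the axis called higher was 4 in every fit with the same cut-offs other than this, and 8 by the adjusted p alone. Over all features, 1399 were called higher and 1320 lower. The counts were 2318 and 767 with scaling to Hprt, 8627 and 8630 by the adjusted p alone, and 825 higher when each library had to hold 100 counts. With that filter, 1 negative regulator, 3 genes of the route to Irf3 and 4 interferon-stimulated genes were called higher, since it removes every gene with fewer counts in wt MEF cells. With scaling to the total count or to Hprt, 1 negative regulator was called lower, since Ptpn6 came to -0.99 and -0.69, inside the fold cut-off, as all features shifted by 0.0725 and 0.37.

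Medians of lists moved with the scaling by construction. The median over the axis was 0.92 with TMM factors from genes only, 0.97 with the total count, 1.27 with Hprt, 0.67 without a filter on low counts, where Ifnb1 enters, and 0.90 to 0.92 with each library left out. For kinases and other STATs it was 0.19, 0.24, 0.54 and 0.26 in the same order, and 0.17 to 0.20. Negative regulators went to 0.016 with the total count and 0.31 with Hprt, and -0.10 to -0.011 with each library left out, and the route to Irf3 to 0.057 and 0.36, and -0.034 to 0.027. Interferon-stimulated genes had 6.28 with Hprt, 0.91 with at least 100 counts in every library, and 5.74 to 6.11 with each library left out. With the ISRE core lengthened by a C at its end, 1 gene of the axis held it in place of 2.

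Replicate numbers 1 and 2 occur in either genotype. A fit with a replicate block gave Irf9 1.94 and Irf3 0.27, and no call on the 8 genes changed. Libraries that share a number did not deviate together (correlation 0.0197 over 17952 features), so nothing shows that the numbers pair the libraries. Where a library was left out, the lone library of its group was assumed to vary like the others.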

Other observations

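For each called gene of the axis, the genes with the most similar pattern over the 4 libraries were found among 16656 genes with a mean above 100 normalized counts, by the Euclidean distance of log2 normalized counts after the mean of each gene was subtracted. For Stat2 these were Tgfb1, Ttc28 and Kdm5d (log2 fold changes of 1.15, 1.14 and 1.15), and for Irf1 they were St3gal5, Aebp1 and Psme1 (1.24, 1.23 and 1.24). For Irf7 they were Cish, Gm47040 and Spry4 (1.62, 1.6 and 1.56), and for Irf9 Pcdhb22, Tmem176a and C230088H06Rik (1.95, 1.96 and 1.96). With 2 libraries per genotype, this likeness is mostly a likeness of fold change.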
